A study of Rattus norvegicus with 4 samples.

Results

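Nuclear pore and nuclear transport genes were described across 4 cultures of NR8383, a rat alveolar macrophage line. The genes were chosen by symbol: Ranbp2, Tpr, Pom121, Ndc1, Aaas, and every rat symbol made of Nup, Kpna, Kpnb, Xpo, Ipo or Tnpo followed by a number. The rat gene table held 49 such symbols, and probes were matched by accession for 42 of them, among 16581 genes with a named probe. No probe was matched for Nup133, Nup188, Kpna7, Ipo5, Ipo8, Ipo11 and Xpo4. The measured genes had 51 probes, 1 probe each for 34 genes and several for 8. The set was proposed with readings of these 4 arrays in view, so all values below are a description.

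All 4 cultures belonged to 1 group. They were seeded for 48 h and received NM403, a multi-walled type of carbon nanotube, for 4 h at a dose of 0.8 cm2/cm2. The cells, 1 established line, had gone through 20 passages. Total RNA was hybridised to 1-colour Agilent arrays, and the labels give the 4 samples as biological replicates. Unexposed cultures were not analysed here, so the values describe exposed cells and how far the cultures differed, and no response to NM403 was tested. In RNA from whole cultures, fewer cells with a transcript and less of it per cell cannot be told apart.

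The nuclear pore complex is a ring-shaped channel through the nuclear envelope, built from many copies of proteins called nucleoporins. A scaffold of coat and inner ring proteins holds the channel open, and nucleoporins rich in phenylalanine-glycine (FG) repeats fill it. Large cargo crosses bound to importins or exportins, whose loading is set by the small GTPase Ran. In macrophages this route carries transcription factors such as NF-kB and NRF2 into the nucleus after a stimulus.

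The level of a gene is the log2 processed intensity of its brightest probe minus the 75th percentile, on the same array, of the probes detected on all arrays. Since each probe binds its target differently, the level of a single gene is compared only between cultures for the same probe. Sums over markers and classes by level mix probes and are rough. A probe was detected where the scanner software called it well above background. The share of non-control spots so called ran from 45.9% to 50.8% over the arrays, and the dimmest detected probe read between -6.23 and -5.63. The software put 2 of its 11 quality measures out of range on replicate 4 and none on the other arrays. All 9 macrophage markers, among them Cd68 and Csf1r, were detected on every array, against 5 of 19 measured markers of epithelium, fibroblasts, endothelium, lymphocytes and neutrophils (Dcn, Pecam1, Cdh5, Cd3d and Cd4). Of the other 14, 11 were detected on no array, among them Epcam, Cdh1, Col1a1 and Cd3e, and 3 on some: Col1a2 on 2 arrays and Sftpc and S100a8 on 1 each. The summed level of a list is the log2 of its summed unlogged levels. It ran from -0.51 to -0.25 for the other-cell markers. For the macrophage markers it ran from 6.31 to 6.63, where Lyz2 alone read 5.83 to 6.19. Around the spots of pore and transport probes, at most 2 neighbours on an array were raised, that is, 4-fold or more above the other arrays' median.

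Nearly all measured pore and transport genes were detected in the exposed macrophages. Of the 42 genes, 39 were detected on all 4 arrays, where 47.9% of all named genes were. Detection was partial for 2 genes and lacking on every array for 1, where 40.4% of all named genes were detected on no array. Nup107, a scaffold nucleoporin, read -5.57, -5.50, -5.88 and -5.18 on replicates 1 to 4 and was not well above background on replicate 3. Kpna5, an importin alpha, read -5.46, -7.40, -5.34 and -6.84 and was above background on replicates 1 and 3 alone. The matched probe of Nup50, a basket nucleoporin that helps release importin alpha, read -6.23, -5.86, -6.02 and -6.24 and never stood well above background. The 39 genes detected on all arrays by their brightest probe are called eligible below, and they had to pass that filter on every array.

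The cultures differed little in most of these genes and several-fold in a few. The median SD over cultures was 0.21 for the 39 genes and 0.23 for all 7935 eligible genes, and the median range from lowest to highest culture was 1.38-fold and 1.40-fold. An SD above the median of all eligible genes was found for 18 of the 39 genes, and 3 lay above the 90th percentile of 0.58. A range over 2-fold was found for 4 of the 39 genes, Ranbp2, Tpr, Ipo7 and Nup58, where 13.6% of all eligible genes had one. The count of 4 is 10.3% of the 39 genes.

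Ranbp2 encodes the large FG nucleoporin of the cytoplasmic filaments, which binds Ran and acts in SUMO attachment. On replicates 1 to 4, in this order as for all genes below, it read 0.08, -2.08, -0.03 and -2.05. Replicates 1 and 3 were high and replicates 2 and 4 low, a 4.48-fold range and an SD of 1.21 (n = 4), higher than that of 99.3% of eligible genes. Its spot on replicate 1 was itself raised against the median of the other 3 arrays, 2 of which were the low ones, with 0 of 24 neighbours raised. Tpr, a long coiled-coil protein that forms the filaments of the nuclear basket, read 1.26, -0.64, 1.33 and -0.55. Its range was 3.90-fold with an SD of 1.09, and its 2 spots per array differed with a median SD of 0.0051. Ipo7, an import receptor for ribosomal proteins and, with importin beta, for linker histone, read 0.20, -1.03, 0.28 and -1.04, a 2.50-fold range with an SD of 0.74. These 3 genes were thus high on replicates 1 and 3 and low on replicates 2 and 4. Nup58, which lines the central channel with Nup54 and Nup62, read -3.11, -4.29, -3.24 and -3.92, a 2.26-fold range with an SD of 0.56. A second Nup58 probe, also detected on all arrays, read -3.21, -3.96, -4.22 and -3.95, so on it replicate 3 was the lowest and not among the high arrays.

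**Figure D1:**
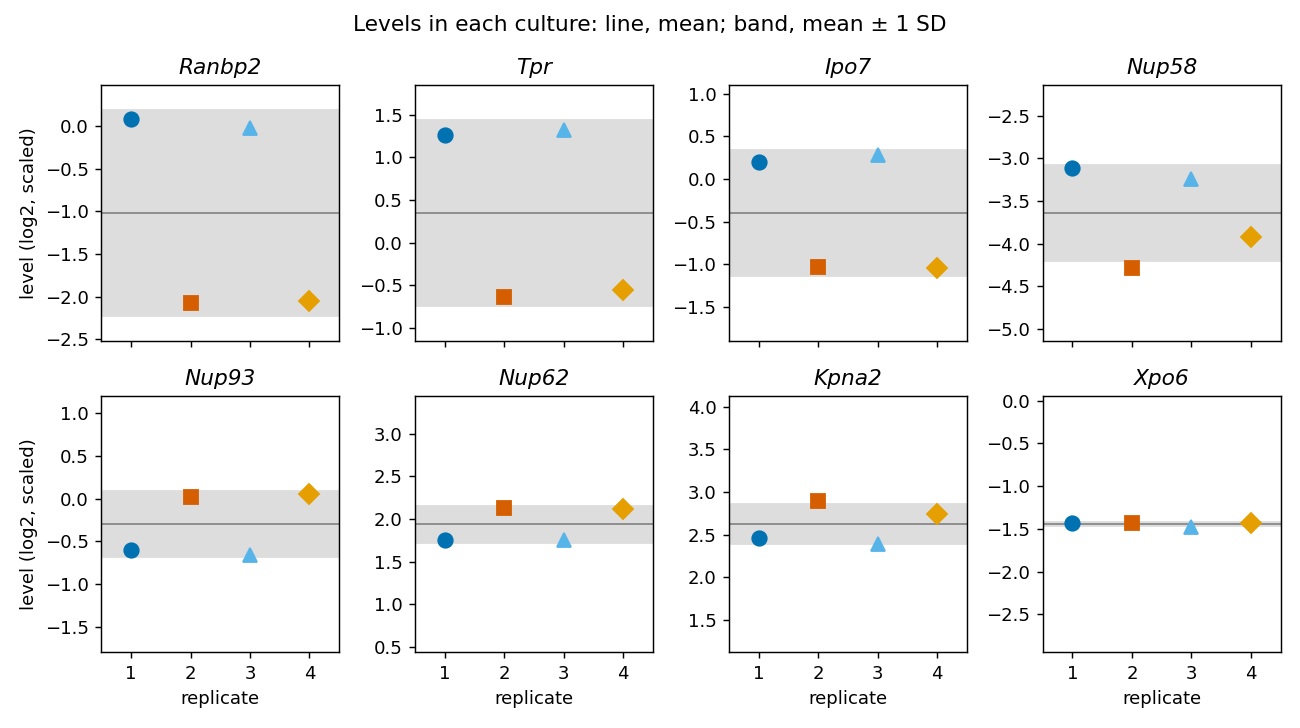
Scaled level (log2, y axis, each panel 3 units high) of 8 genes on replicates 1 to 4 (x axis); the line is the mean and the band is the mean ± 1 SD over 4 cultures. Ranbp2, Tpr, Ipo7 and Nup58 read higher on replicates 1 and 3, Nup93, Nup62 and Kpna2 read higher on replicates 2 and 4 by less (Kpna2 on replicates 1 and 2 under quantile normalization), and Xpo6 had a range of 1.04-fold with this scaling.

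The sequences before the start sites of these 4 genes are shown because their readings had the widest ranges and the same high arrays. Each is the 250 bases before the annotated start in RefSeq, build GRCr8, 5′ to 3′ on the gene's strand. The windows are chr20:26985064-26985313, plus strand, for Ranbp2; chr13:64974169-64974418, plus strand, for Tpr; chr1:173497222-173497471, plus strand, for Ipo7; and chr15:38583166-38583415, minus strand, for Nup58. Capitals mark matches, on either strand, to the motifs reported.
Ranbp2: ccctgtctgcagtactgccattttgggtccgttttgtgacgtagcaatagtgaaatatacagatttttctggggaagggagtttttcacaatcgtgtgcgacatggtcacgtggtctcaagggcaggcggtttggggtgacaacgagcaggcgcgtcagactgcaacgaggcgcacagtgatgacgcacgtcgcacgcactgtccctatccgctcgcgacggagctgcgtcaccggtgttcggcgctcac
Tpr: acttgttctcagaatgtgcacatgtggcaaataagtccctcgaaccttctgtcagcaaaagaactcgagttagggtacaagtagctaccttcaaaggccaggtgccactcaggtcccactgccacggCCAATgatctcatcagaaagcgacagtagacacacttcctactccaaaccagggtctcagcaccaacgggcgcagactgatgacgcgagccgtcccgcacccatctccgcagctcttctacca
Ipo7: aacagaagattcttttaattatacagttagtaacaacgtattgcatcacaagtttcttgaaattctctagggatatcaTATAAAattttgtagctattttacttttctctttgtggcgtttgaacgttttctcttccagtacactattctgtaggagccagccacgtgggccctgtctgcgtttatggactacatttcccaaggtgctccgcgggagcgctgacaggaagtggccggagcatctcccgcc
Nup58: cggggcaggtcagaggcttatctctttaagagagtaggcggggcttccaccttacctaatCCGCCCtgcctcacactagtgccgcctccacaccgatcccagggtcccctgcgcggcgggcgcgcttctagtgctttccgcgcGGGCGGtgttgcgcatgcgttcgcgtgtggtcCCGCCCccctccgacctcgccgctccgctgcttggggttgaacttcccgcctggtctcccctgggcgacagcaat
The motifs reported, each searched on both strands, were the GC box, spelled GGGCGG; the CCAAT box, spelled CCAAT; an ETS motif, spelled CCGGAAG; a YY1 motif, spelled AAGATGG; and the TATA box, spelled TATAAA. None of these strings contains another. An NRF1 motif was searched too and is not reported here. Nup58 held 3 GC boxes, at positions -190, -107 and -75 from the start. Tpr held 1 CCAAT match, at -123, and Ipo7 held 1 TATA match, at -172. Ranbp2 held none of the 5. Of the 42 measured genes, 36 had a window in the table. A GC box was present in 20 of 36 windows and in 32.4% of all 27457 windows of this length, a CCAAT box in 17 and 34.3%, an ETS match in 5 and 7.74% and a TATA match in 2 and 13.1%. A YY1 match was in none of the 36 and in 4.63% of all windows. The 36 windows had a median of 21 CG dinucleotides and 61% G+C, against 6 and 52% over all windows. With 10 CG dinucleotides and 43.6% G+C, Ipo7 lay below that median, as did Tpr with 11 and 53.6%, whereas Ranbp2 held 23 and Nup58 25. These matches describe letters in a window and were not measured as binding.

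The eligible scaffold genes all had ranges below the 2-fold mark by which the 4 genes above were picked. In the Y complex, the coat of the pore, 5 of 6 genes were measured and the 4 eligible ones had ranges from 1.31-fold to 1.43-fold. Nup85 read 0.90, 1.39, 0.96 and 1.42, with the largest SD of this set at 0.27, and Nup43 read -1.98, -1.85, -2.15 and -1.76, with the smallest at 0.17. For both genes replicates 2 and 4 were the higher arrays. Without replicate 3 the SD of Nup43 was 0.11. Nup37 had an SD of 0.19, which was 0.059 without replicate 4. Nup160 read -3.57, -4.05, -3.65 and -3.83 and was the 1 eligible Y complex gene with replicates 1 and 3 highest, a pair that became 1 and 4 under 3 of 4 other scalings or corrections. Its SD of 0.22 was 0.13 without replicate 2. In the inner ring, which anchors the channel to the coat, all 4 measured genes were eligible. All 4 read highest on replicates 2 and 4, where 47.3% of all eligible genes did. Nup93, the linker between scaffold and channel, read -0.60, 0.01, -0.67 and 0.05, an SD of 0.39 and a 1.64-fold range. Nup155 read -2.30, -2.10, -2.23 and -2.05 with an SD of 0.12. Nup205 and Nup35 had SDs of 0.27 and 0.20. The median SD was 0.20 for the eligible Y complex genes and 0.24 for the inner ring genes, against 0.23 for all eligible genes.

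The channel genes went different ways. Nup62, an FG nucleoporin of the transport channel, read 1.75, 2.13, 1.76 and 2.12, an SD of 0.21 and a 1.30-fold range, with replicates 2 and 4 high. Its probe was printed 10 times per array, and the spots of an array had a median SD of 0.048, below the SD between cultures. Nup54 read -3.82, -3.92, -4.04 and -3.72 with an SD of 0.14, and its highest arrays were replicates 1 and 4, or 2 and 4 under 3 of the alternatives. Nup62 and Nup58, partners in 1 complex, therefore had opposite high arrays by their brightest probes, also under the 4 alternatives. The second Nup58 probe, with replicates 1 and 4 highest and replicate 3 lowest, did not show this opposition. Nup98, an FG nucleoporin found on both faces whose transcripts can also encode a scaffold protein, read 0.94, 1.22, 0.86 and 1.24 with an SD of 0.20. A second Nup98 probe, detected on all arrays, read -4.67, -5.30, -4.85 and -4.94, with its high arrays the other way round, and the Nup98 probe with the lowest signal was well above background on 1 array.

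On the cytoplasmic face all 5 genes were eligible. Aaas, which encodes ALADIN, the protein altered in triple A syndrome, read -1.91, -1.45, -2.06 and -1.54 with an SD of 0.30. Nup88 and Nup214 form a complex that serves export. Nup88 read -1.04, -0.38, -0.96 and -0.76, and its SD of 0.29 was 0.14 without replicate 2. Nup214 read -2.30, -2.44, -1.86 and -2.58, and its SD of 0.31 was 0.14 without replicate 3. For Nup88 and Nup214 the spread of these probes thus rested largely on 1 array each. A second Nup214 probe, also detected on all arrays, read -2.38, -2.61, -2.44 and -2.68 with an SD of 0.14. On that probe replicate 1, and not replicate 3, was the highest. Nup42, which binds the export factor Gle1, read -1.07, -0.92, -1.02 and -0.97 with an SD of 0.064, the smallest of this set. The basket gene Nup153, which anchors Tpr at the pore, read -1.75, -2.04, -1.75 and -1.93 with an SD of 0.14. Tpr and Nup153 had the same high arrays, although Nup153 kept them under 1 of the 4 alternatives, normexp: they became replicates 2 and 4 when all non-control probes set the percentile and 3 and 4 with the median or quantile normalization. The range of Nup153 was 1.23-fold.

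The 3 membrane ring genes, whose products hold the pore in the envelope, were all eligible. All 3 read highest on replicates 2 and 4, where 47.3% of all eligible genes did. Nup210 read 0.40, 0.89, 0.34 and 0.99 with an SD of 0.33. Pom121 read -1.67, -1.26, -1.49 and -1.09 with an SD of 0.26, and Ndc1 read -3.20, -2.85, -3.22 and -2.75 with an SD of 0.24. Their ranges ran from 1.38-fold to 1.57-fold.

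**Figure D2:**
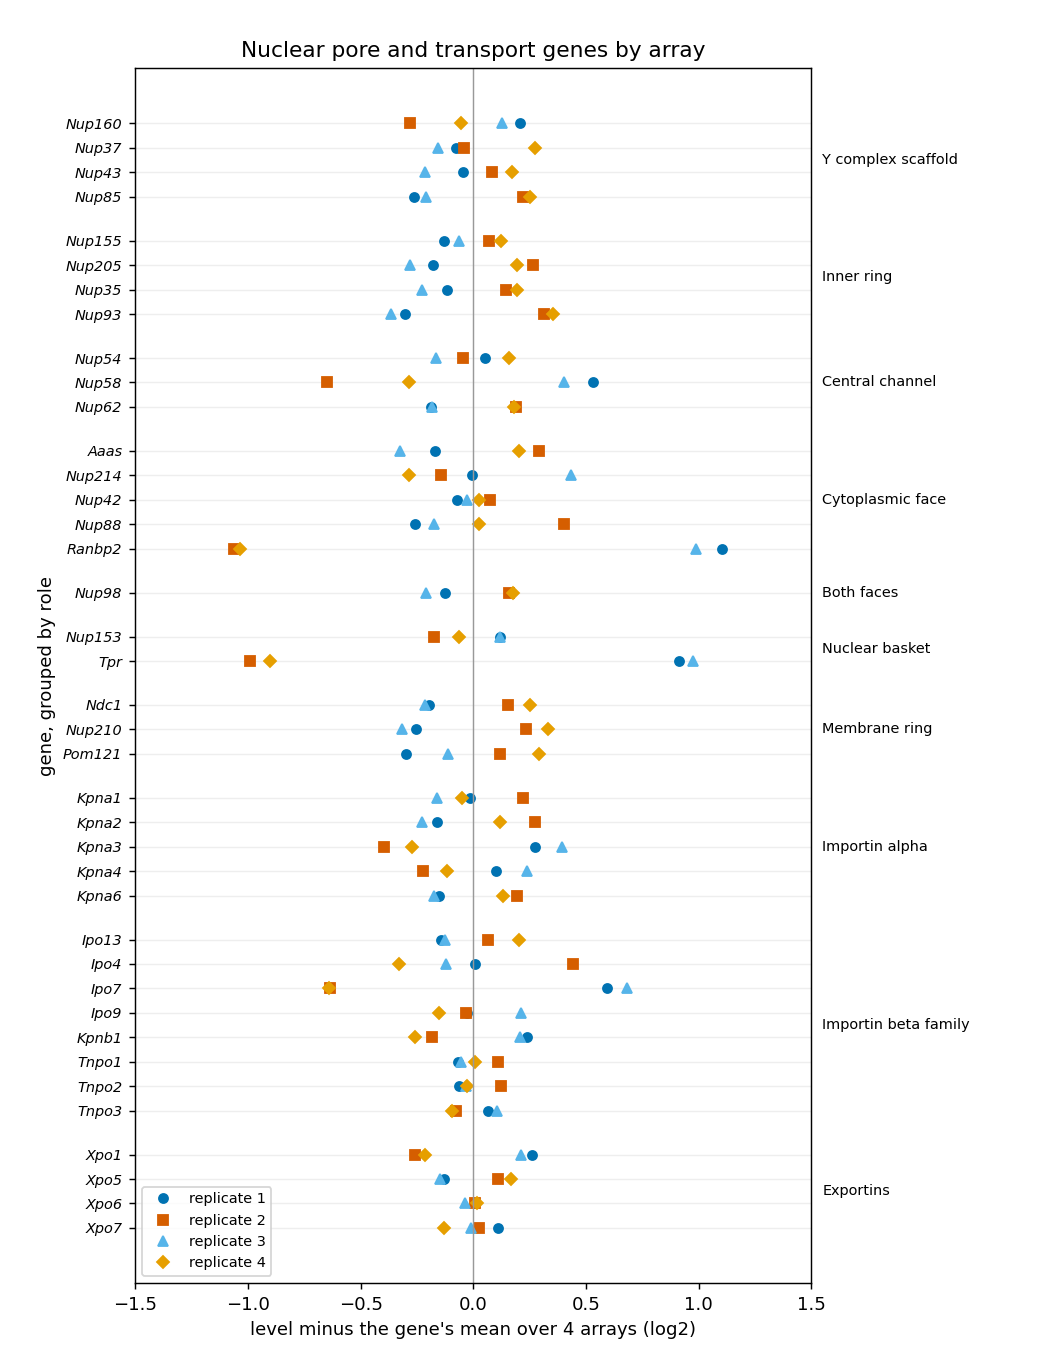
Level of each of the 39 eligible genes minus its own mean over the 4 arrays (log2, x axis), with genes grouped by role (y axis) and 1 symbol per replicate. Ranbp2, Tpr, Ipo7 and Nup58 spread furthest, with replicates 1 and 3 on the right, while inner ring and membrane ring genes had replicates 2 and 4 on the right.

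Importin alpha proteins are adaptors that bind classical nuclear localisation signals, and 5 of 6 measured genes were eligible. Kpna2 read 2.46, 2.89, 2.39 and 2.74, an SD of 0.24 and a 1.41-fold range. Within an array, the 10 spots of this probe differed with a median SD of 0.057. Kpna3 read -3.54, -4.21, -3.42 and -4.09, an SD of 0.39 and a 1.73-fold range. Kpna2 was thus high on replicates 2 and 4 (1 and 2 under quantile normalization), and Kpna3 on replicates 1 and 3. A second Kpna3 probe, detected on 3 arrays, read -4.64, -5.74, -4.41 and -5.98, with the same high arrays. Kpna4 had an SD of 0.21 and replicates 1 and 3 highest, or 3 and 4 under 2 of the alternatives. Kpna6 had an SD of 0.19 and replicates 2 and 4 highest. Kpna1 read -4.27, -4.03, -4.41 and -4.30 with an SD of 0.16, which was 0.075 without replicate 2. RefSeq lists pseudogenes named for 6 measured genes, 9 of them for Kpna1, 2 for Ipo7 and 1 each for Kpna3, Kpna4, Nup35 and Nup50. Whether probes also bound such copies was not tested.

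Among the importin beta family, the receptors that carry cargo through the channel, all 8 measured genes were eligible. Kpnb1, the partner of importin alpha, read -1.59, -2.02, -1.62 and -2.09, an SD of 0.26 and a 1.41-fold range. Its high arrays were those of Ipo7, but its range was smaller. Ipo4 read 0.94, 1.38, 0.81 and 0.61, and its SD of 0.33 was 0.17 without replicate 2. Ipo13 and Ipo9 had SDs of 0.17 and 0.15, and that of Ipo9 was 0.070 without replicate 3. The 3 transportins, by their brightest probes, had the smallest SDs of this family with the scaling used here. Tnpo1, which imports hnRNP proteins, read 0.04, 0.22, 0.06 and 0.12 with an SD of 0.080, or 0.041 without replicate 2. Tnpo2 had an SD of 0.084, or 0.020 without replicate 2, and Tnpo3, the importer of SR splicing factors, of 0.10. A second Tnpo1 probe, detected on all arrays, read -1.18, -2.71, -1.17 and -1.95, a 2.92-fold range. The 2 Tnpo1 probes differed in range and in which arrays were high.

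All 4 measured exportins were eligible and had ranges from 1.04-fold to 1.43-fold. Xpo1, the exporter of proteins with leucine-rich signals, read -0.64, -1.16, -0.69 and -1.12 with an SD of 0.27. Replicates 1 and 3 were the high arrays for Xpo1, and replicates 2 and 4 for Xpo5, the exporter of microRNA precursors, which had an SD of 0.16. Xpo6, the exporter of actin, read -1.44, -1.44, -1.48 and -1.43 with an SD of 0.024, the smallest of the 39 genes and at percentile 0.49 of all eligible genes. Without replicate 3 it was 0.0046. This rank held with the scaling used here and not with others: the SD of Xpo6 was 0.23 when all non-control probes set the percentile, 0.14 with the median, 0.12 with quantile normalization and 0.054 with normexp, and under each of these another gene had a smaller SD (Kpnb1, Nup153, Nup153 and Nup54). The order of SDs within the other roles was likewise read with 1 scaling. Xpo7 read 0.12, 0.03, -0.0024 and -0.12 and its SD of 0.098 was 0.061 without replicate 4. A second Xpo7 probe, detected on 3 arrays, read -5.22, -6.10, -3.87 and -4.19. The 22 eligible nucleoporins had a median SD of 0.25 and the 17 eligible transport receptors of 0.17, a difference that was not tested.

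Most of these genes had 1 of the same pairs of arrays high. Of the 39 genes, 21 had their 2 highest readings on replicates 2 and 4, where 47.3% of all eligible genes did, and 13 on replicates 1 and 3, where 34.5% did. Among the other 5, Ipo4, Kpna1 and Xpo7 had them on replicates 1 and 2, where 5.91% of all eligible genes did, and Nup54 and Xpo6 on replicates 1 and 4, where 4.03% did. No gene of the 39 had them on replicates 2 and 3 (3.13%) or on replicates 3 and 4 (5.15%). Of the 22 eligible nucleoporins, 15 read highest on replicates 2 and 4 and 6 on replicates 1 and 3. Of the 17 transport receptors, 6 read highest on replicates 2 and 4 and 7 on replicates 1 and 3. Each of the 4 genes with a range over 2-fold had replicates 1 and 3 highest, as did 80.2% of the 1079 eligible genes with such a range.

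**Figure D3:**
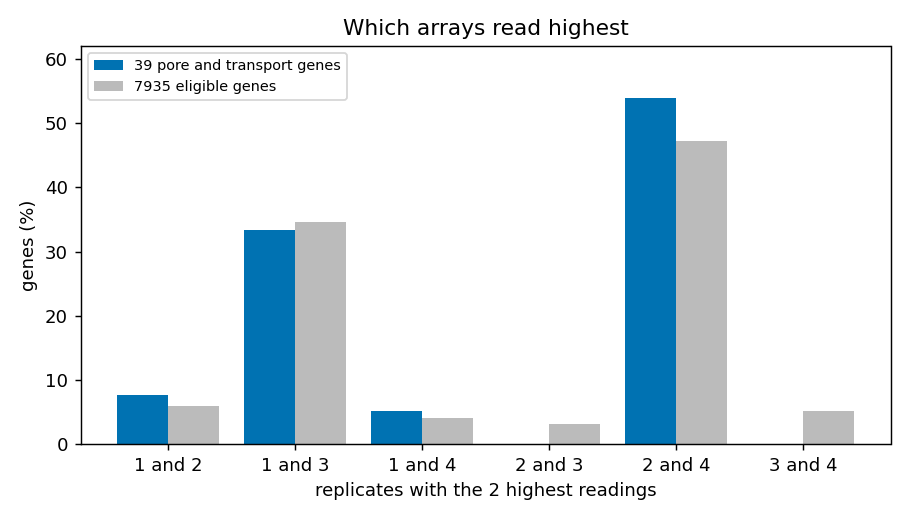
Share of genes (%, y axis) whose 2 highest readings lay on each pair of replicates (x axis), for the 39 pore and transport genes and for all 7935 eligible genes. In both sets the bars for replicates 2 and 4 and for replicates 1 and 3 are the tallest.

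Which arrays were high depended in part on the scaling. The median over all eligible genes of replicate 1 minus replicate 2 was -0.09, and it was -0.45 when all non-control probes set the percentile, -0.31 with the median of the detected probes, -0.19 with quantile normalization and -0.07 with normexp background correction. Under all these settings, 7 of the 13 genes kept replicates 1 and 3 highest: Ranbp2, Tpr, Ipo7, Nup58, Kpna3, Kpnb1 and Xpo1. Nup153, Ipo9 and Tnpo3 turned to replicates 2 and 4 under at least 1 of them. Of the 21 genes highest on replicates 2 and 4, 19 kept those arrays under all 4, and Kpna2 and Tnpo2 did not. The inner ring and membrane ring genes were among the 19. The choice of probe mattered as well. With the mean over a gene's detected probes, 18 genes read highest on replicates 2 and 4 and 14 on replicates 1 and 3.

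Level and probe went with the pattern too. Eligible genes were split into 3 classes of equal size by level. Replicates 1 and 3 were highest for 43.5% of all genes in the lowest class and 20.9% in the highest. For the pore and transport genes they were highest for 5 of 8 in the lowest class, 5 of 15 in the middle one and 3 of 16 in the highest. The 8 genes with several probes had 9 probes besides the brightest, and 5 of these were detected on all arrays. Of those 5, 4 read highest on replicates 1 and 3, where 44.9% of such probes over all named genes did. For Nup37, Nup98 and Tnpo1 the gene's brightest probe read highest on replicates 2 and 4 instead. Over all named genes 5.52% of such dimmer probes opposed their brightest probe in this way. The part of signal level in the differences between arrays was not tested.

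The arrays were also compared pair by pair. The closest pairs were 1 with 3, at a median absolute difference of 0.078 over the 39 genes, and 2 with 4, at 0.098. In each of the 4 remaining pairs this median lay between 0.30 and 0.37. Between replicates 1 and 3, 0 of 39 genes differed more than 1.5-fold (1.9% of all eligible genes) or 2-fold (0.655%). Between replicates 2 and 4, 1 gene, Ipo4, differed more than 1.5-fold (3.97%) and 0 more than 2-fold (1.3%). More than 1.5-fold apart were 7 genes between replicates 1 and 2 (24.9%), 7 between 1 and 4 (28.3%), 7 between 2 and 3 (25.7%) and 8 between 3 and 4 (28.1%). More than 2-fold apart were 4 genes between replicates 1 and 2 (8.78%), 3 between 1 and 4 (9.86%), 4 between 2 and 3 (9.24%) and 3 between 3 and 4 (9.36%).

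Counted by direction, 16 of the 39 genes read higher on replicate 1 than on replicate 2 (43.5% of all eligible genes), 23 higher on 1 than on 3 (50.4%) and 16 higher on 1 than on 4 (43.8%). Replicate 2 was higher than replicate 3 for 26 genes (56.8%) and higher than replicate 4 for 17 (44.1%), and replicate 3 was higher than replicate 4 for 15 (43%). These counts move with the scaling shifts given above.

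**Figure D4:**
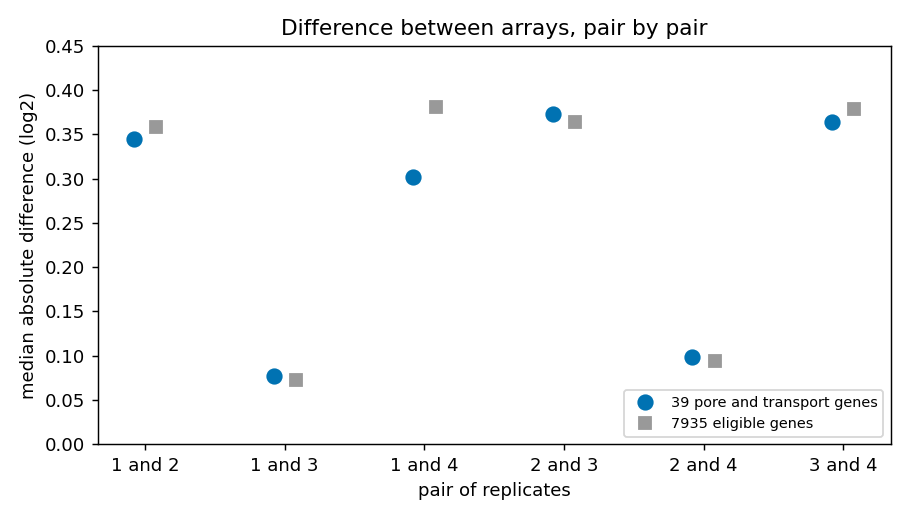
Median absolute difference in level (log2, y axis) between each pair of replicates (x axis), for the 39 pore and transport genes and for all 7935 eligible genes. Both sets lie under 0.1 for the pairs 1 and 3 and 2 and 4 and at 0.30 or more for the other pairs.

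Genes that work with the pore showed both patterns. Of 53 partners of nuclear transport, listed by their known roles, 44 were measured. Detected on all arrays were 39, where 47.9% of all named genes were. Of these 39, 5 had a range over 2-fold, where 13.6% of all eligible genes had one. Ran itself read 3.87, 4.26, 3.87 and 4.23 with an SD of 0.22. Rangap1, which makes Ran hydrolyse GTP at the cytoplasmic filaments and binds Ranbp2, read -0.90, 0.10, -0.82 and 0.15, a 2.07-fold range. Rcc1, the exchange factor that loads Ran with GTP in the nucleus, read -3.57, -2.95, -3.55 and -3.35, with an SD of 0.28 that was 0.12 without replicate 2. Cse1l, which returns importin alpha to the cytoplasm, read -0.17, -0.07, -0.22 and 0.03. All 6 eligible genes of the Ran cycle, which also include Ranbp1 and Nutf2, read highest on replicates 2 and 4. Of all eligible genes 47.3% did. These were the low arrays of Ranbp2. Under the 4 alternatives 5 of the 6 kept them, and Cse1l did not under normexp.

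Messenger RNA export genes were detected on all arrays for 16 of 17 measured members, where 47.9% of all named genes were. Of these 16, 10 read highest on replicates 2 and 4 (47.3% of all eligible genes) and 6 on replicates 1 and 3 (34.5%). Under the 4 alternatives, 9 and 4 of them kept these arrays. Nxf1, the main export receptor of messenger RNA, read 0.17, -0.31, 0.07 and -0.18. Thoc2, a subunit of the THO complex that couples transcription to export, read -3.35, -5.33, -3.43 and -5.47, a 4.35-fold range with the high arrays of Ranbp2 and Tpr. On replicate 4 it lay close to the dimmest detected probe, at -5.63, which limits this range. Ddx19b, a helicase of the cytoplasmic face, read -2.36, -2.70, -2.56 and -4.00, a 3.11-fold range, and its SD of 0.74 was 0.17 without replicate 4. Of the nuclear lamina and envelope genes, 12 of 13 were detected on all arrays (47.9% of all named genes). Of these 12, 6 read highest on replicates 2 and 4 (47.3%), 3 on replicates 1 and 3 (34.5%) and 3 on other pairs. Under the 4 alternatives, 6 and 2 of them kept these arrays. Lmna, the gene of lamins A and C, read 4.19, 4.73, 4.15 and 4.76, while Lmnb1, the gene of lamin B1, read -0.98, -1.80, -0.35 and -1.77 and Tmpo, which encodes lamina-associated polypeptides, read -3.69, -5.04, -3.73 and -5.05. Lmna was thus high where Lmnb1 and Tmpo were low, also under the 4 alternatives. No probe was matched for Lbr. Of the listed pore parts and pore-associated proteins not covered by the symbols, 5 were eligible. Replicates 1 and 3 were highest for 4 of them (34.5% of all eligible genes). Ahctf1 and Tmem33 kept these arrays under the 4 alternatives. Senp1, with a range of 1.06-fold, and Senp2 did not. Ahctf1, which seeds pores on chromatin, read -1.15, -1.99, -1.17 and -2.12. Sec13, a Y complex protein, read 0.11, 0.66, 0.15 and 0.69, with replicates 2 and 4 highest.

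Proliferation markers moved with these arrays in both directions. All 7 measured markers were detected on all arrays, where 47.9% of all named genes were. Of them 2, Mki67 and Bub1, read highest on replicates 1 and 3 (34.5% of all eligible genes). The other 5 read highest on replicates 2 and 4 (47.3%). All 7 kept these arrays under the 4 alternatives. Mki67 read 1.03, -0.53, 1.11 and -0.47. The summed level was 3.49, 3.70, 3.53 and 3.72 on replicates 1 to 4. The part of proliferation in the differences between cultures was not tested.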

How the data were processed

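Per the labels' protocols, RNA-Solv extracts with an integrity number above 7.5 were used and 100 ng was labelled with Cy3. The authors deposited scanner intensity files. The submitters' processing notes name Agilent Feature Extraction 11.0.1.1. Per the file headers, this software subtracted background from the processed intensity and detrended it on each array. Arrays were not normalized against each other, and the design names build rn4. The 4 arrays shared 1 slide. Their number limits the precision.

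Control spots and spots flagged as outliers (623 to 1016 per array) were left out. Saturation was not called for any spot. The log2 intensity of repeated spots was averaged. A probe was detected where over 50% of its spots were well above background. Probes (45598) were named by accession, without version, through the RefSeq table of GRCr8, whose build differs from the array's: 21109 (46.3%) matched 1 symbol. The scaling percentile was taken over the 34.2% of probes (under 50%) that every array detected. Python 3.11.15 and, for normexp, limma 3.58.1 were used, and the steps were tested on simulated data. With 1 group no test between groups was made. Dixon's critical value for 4 samples was used only to flag an array apart from the rest. Members, lists and rules were chosen with earlier results of these data known. All 4 readings are given for genes fixed by role, those with a range over 2-fold, the largest and smallest SD of each role, those not detected on all arrays and those whose probes disagreed; a few others were added after their values were seen. Alternatives were other scalings, quantile normalization, normexp correction with an offset of 50, other detection rules and filters, the mean over probes, outlier spots kept, and each replicate left out. Normexp used the median spot signal in place of the mean. Naming probes by a gene name column was not run, since no such column was used here.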

Additional observations from a re-analysis of the deposited data

Results flagged for a closer look

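Of 49 genes examined for 1 array apart from the rest, 39 pore and transport genes and 10 partners, 1 was flagged, Xpo6. The gap between replicate 3 and the nearest other reading of Xpo6 was 0.838 of the gene's whole range, above Dixon's critical value for 4 samples. The range of Xpo6 was 1.04-fold with this scaling, so the gap is small in size. Its SD of 0.024 became 0.23, 0.14 and 0.12 with the percentile over all probes, the median and quantile normalization, where the SD of Xpo6 was not the smallest. Chance gives such a gap in about 1 of 20 groups, so 1 flag among 49 genes is no more than chance gives.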

How the results depend on the processing

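Detection calls do not depend on the scaling, so the count of 39 genes detected on all arrays could not change with it. This count was 35 to 42 under other detection rules and 39 to 40 when 1 replicate was left out. The count with a range over 2-fold ran from 3 to 6 over all alternatives. The median SD of the 39 genes was 0.214 and became 0.372 when all non-control probes set the percentile, where that of all eligible genes was 0.353. With 1 replicate left out it ran from 0.195 to 0.221. Which arrays read highest was compared under alternatives chosen after seeing the data. Replicates 1 and 3 were highest for 13 genes. This count was 7 when all non-control probes set the percentile, 8 with the median of the detected probes and 8 with quantile normalization. With the mean over probes it was 14, and the count for replicates 2 and 4 was 18 in place of 21. The cause was not tested. The SDs of 24 named genes moved over 1.5 times for 21 genes with the percentile over all probes, 13 with the median, 14 with quantile normalization and 4 with normexp. Among them the SD of Kpnb1 became 0.060 and that of Xpo1 0.069 with the percentile over all probes. Signal near background limits Nup107, Kpna5 and Nup50, and also Ipo9 and the low readings of Thoc2. No paired analysis was possible because there was 1 group.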
